A study of Mus musculus with 8 samples.

Results

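Voltage-gated sodium and calcium channels were followed across basal ganglia and cortex of mice carrying Dlx1/2 mutations. The genes were chosen by symbol: every gene with a probe set naming it alone, under a symbol of the form Scn, number and a or b, or beginning with Cacna, Cacnb or Cacng. This gave 35 genes on 85 probe sets, of 18193 genes on the arrays. They comprise 8 sodium channel alpha subunits, 3 sodium beta subunits, 9 calcium channel alpha1 subunits, 4 alpha2delta subunits, 3 calcium beta subunits and 8 gamma subunits. Each gene was read from the probe set with the highest mean log2 signal over the 8 arrays, and 31 of the 35 passed the filter on dim probe sets and were tested.

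The labels give 4 groups of 2 arrays each: basal ganglia (BG) and cortex (Ctx), each with the genotype +/- or -/-, numbered as replicates 2 and 3. The series is described as a study of Dlx1/2 mutants, and Dlx1 and Dlx2 are neighbouring homeobox genes that act in the ventral forebrain. Each of the 4 groups carries a mutant allele, so that +/- with 1 intact copy is the control here and no wild type group is compared. The sources used here do not give age, strain, the form of the mutant allele or whether a group's 2 arrays hold RNA of different animals. The p-values therefore cover the scatter between the arrays alone, and that scatter could be technical. A source label also reads blood and adrenal medulla, against the tissue given for each sample. The probe set for Dlx1 read 1232 and 1237 in the BG +/- arrays and 3.67 and 15.5 in the BG -/- arrays, and 138 and 137 in Ctx +/- against 2.42 and 1.74 in Ctx -/-, in the order of the labels.

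A voltage-gated sodium channel is formed by a large alpha subunit that opens on depolarisation and carries the rising phase of the action potential, with beta subunits that adjust its gating and its place in the membrane. A voltage-gated calcium channel is formed by an alpha1 subunit with the pore, a cytoplasmic beta subunit and an extracellular alpha2delta subunit that promotes transport to the membrane. Several of the gamma genes encode proteins better known as auxiliary subunits of AMPA-type glutamate receptors. In the embryonic forebrain these channels appear as neurons leave the cell cycle, and calcium entry through them takes part in migration and neurite growth.

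Some facts of the arrays bear on every result. The 2% trimmed mean was 150.001 on each array, so the arrays had been scaled to 1 level before deposit. Across probe sets on the log2 scale, Pearson correlations were 0.973 to 0.982 within groups and 0.930 to 0.977 between groups. The median signal was 45.7 to 51.6 in BG and in Ctx +/- replicate 2, and 38.0 to 39.5 in the other 3 Ctx arrays. Xist, the X-inactivation transcript, read 34.2 to 67.5 in the 4 arrays labelled +/- and 2340 to 2519 in the 4 labelled -/-, so sex and genotype cannot be told apart in any genotype comparison. Cacna1f is the only channel gene of the set on chromosome X. Precision is limited by having 2 arrays in a group, and in tissue a change in the share of a cell type and a change in RNA per cell cannot be told apart.

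Of the 35 genes, Cacna2d1, Scn2a and Scn1a passed the test for a genotype difference in the basal ganglia, and the stretches around their transcription starts are printed to show how unlike these genes are in sequence. The windows are from RefSeq on GRCm38.p6, run from 250 bases before to 50 bases after each start, and read 5′ to 3′ on the strand of the gene. Capitals mark TAAT or ATTA, the core that homeodomain proteins such as DLX recognise, on either strand and with overlaps counted. Scn2a has 2 annotated starts.
Scn2a, start 1, chr2:65620519-65620818, plus strand: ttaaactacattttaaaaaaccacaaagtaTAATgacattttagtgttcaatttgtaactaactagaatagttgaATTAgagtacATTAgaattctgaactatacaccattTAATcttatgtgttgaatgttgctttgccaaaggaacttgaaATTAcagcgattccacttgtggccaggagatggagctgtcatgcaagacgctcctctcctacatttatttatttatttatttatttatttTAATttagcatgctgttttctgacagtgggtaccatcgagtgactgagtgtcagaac
Scn2a, start 2, chr2:65668436-65668735, plus strand: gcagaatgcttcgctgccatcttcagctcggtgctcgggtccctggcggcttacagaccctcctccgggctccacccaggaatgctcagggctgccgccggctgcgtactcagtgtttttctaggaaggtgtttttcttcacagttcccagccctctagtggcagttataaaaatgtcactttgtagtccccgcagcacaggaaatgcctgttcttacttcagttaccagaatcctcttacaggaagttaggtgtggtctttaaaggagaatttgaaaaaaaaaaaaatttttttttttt
Scn1a, start 1, chr2:66440788-66441087, minus strand: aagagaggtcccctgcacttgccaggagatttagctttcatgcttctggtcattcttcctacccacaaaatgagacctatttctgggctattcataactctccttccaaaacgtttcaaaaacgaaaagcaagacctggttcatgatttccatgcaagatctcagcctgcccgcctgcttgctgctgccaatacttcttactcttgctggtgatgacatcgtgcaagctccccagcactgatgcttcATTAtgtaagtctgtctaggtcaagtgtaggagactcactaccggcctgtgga
Cacna2d1, start 1, chr5:15934441-15934740, plus strand: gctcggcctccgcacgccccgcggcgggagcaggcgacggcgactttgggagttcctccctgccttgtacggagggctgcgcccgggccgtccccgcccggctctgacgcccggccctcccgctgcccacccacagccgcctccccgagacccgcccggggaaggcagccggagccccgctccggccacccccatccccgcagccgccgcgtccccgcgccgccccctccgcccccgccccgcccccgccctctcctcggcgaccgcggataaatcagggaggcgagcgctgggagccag
The first Scn2a window held 6 cores, had a GC content of 33.0% and held 3 CG dinucleotides, whereas the second held no core, 47.7% GC and 9 CG dinucleotides. The Scn1a window held 1 core, 47.3% GC and 5 CG dinucleotides. The Cacna2d1 window held no core and was a CG-rich stretch of 80.0% GC with 42 CG dinucleotides. A core was present in 58.0% of all 32851 windows of the table and in 56.8% of the 37 windows that matched 27 of the channel genes. The palindrome TAATTA was in 5.29% of all windows and in none of the 37. A match describes these letters only and was not tested as a binding site.

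The first comparison was of -/- with +/- basal ganglia. Cacna2d1, Scn2a and Scn1a rose in BG -/-, by 1.50 ± 0.17, 0.89 ± 0.13 and 0.76 ± 0.14 (SE, log2 of signal + 16), and no channel gene fell on the probe set that stands for it. These 3 of 31 genes are 9.68%, beside 7.82% of all 13627 genes tested (4.76% higher and 3.05% lower), so the share of channel genes past the threshold was near that of all genes. The median change of the 31 genes was 0.17 and that of all genes was -0.08, and 18 of the 31 changes were positive (58.1%, against 41.8% of all genes). Both -/- arrays lay above both +/- arrays for 15 of 31 channel genes (48.4%, against 23.8% of all genes) and below them for 9 (29%, against 37%). An unadjusted p under 0.05 was found for 12 of the 31 (38.7%, against 26.9% of all genes).

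**Figure D1:**
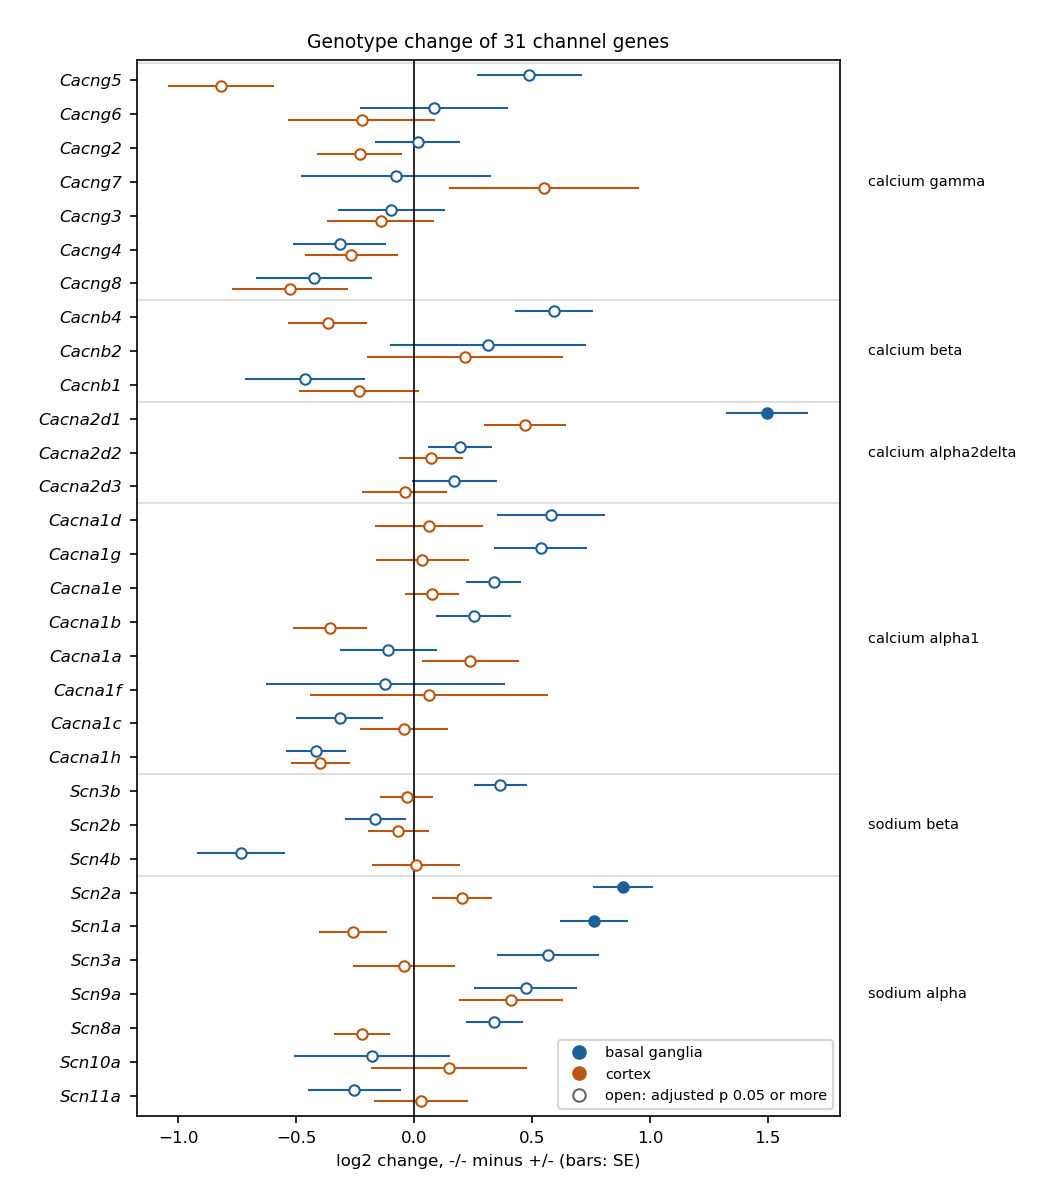
Log2 change between genotypes, -/- minus +/-, on the horizontal axis for the 31 channel genes tested, by subunit class, in basal ganglia (blue) and cortex (orange), with bars of 1 SE and filled points past adjusted p = 0.05. The filled points are Cacna2d1, Scn2a and Scn1a in basal ganglia, at 1.50, 0.89 and 0.76, and no cortex point is filled.

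Among the sodium channel alpha subunits 5 of 7 had a positive change in BG, with a median of 0.47, and Scn2a and Scn1a passed. Scn2a encodes Nav1.2, the main sodium channel of immature excitatory axons. Its BG +/- arrays read 251 and 246, beside 459 and 486 in BG -/-, 254 and 237 in Ctx +/- and 264 and 308 in Ctx -/-. Thus the 2 BG -/- arrays stood above the other 6, which lay between 237 and 308. The BG change passed (limma with Benjamini-Hochberg over all probe sets, adjusted p = 0.0125), and in Ctx the change was 0.20 ± 0.13 (adjusted p = 0.657). Of its other probe sets, the next brightest pair also rose in BG, by 1.39 ± 0.24 and 1.08 ± 0.23 (adjusted p = 0.0202 and 0.0365), and the dimmest was at 0.32 ± 0.17 (adjusted p = 0.289). The call was lost when any of the 4 BG arrays was left out, with changes of 0.85 to 0.93 and an adjusted p of up to 0.0852.

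Scn1a encodes Nav1.1, a channel of fast-spiking interneurons in the mature brain. Its signals were 41.4 and 30.3 in BG +/-, rising to 70.8 and 72.3 in BG -/-, beside 65.9 and 65.8 in Ctx +/- and 56.4 and 48.6 in Ctx -/-. The BG +/- pair was the lowest of the 4 groups and did not overlap any other. The rise in BG passed (limma adjusted p = 0.0253), and in Ctx the change was -0.26 ± 0.14 (adjusted p = 0.616). This is the least firm of the 3 calls: it held in 9 of 18 alternatives, with adjusted p from 0.00856 to 0.287, and was lost with the mean of its probe sets (0.44), with arrays centred on their medians (0.66), with only the BG arrays fitted, and without any of the 4 BG arrays or either Ctx -/- array (0.61 to 0.92). Its other 2 tested probe sets stood at 0.26 ± 0.45 and 0.30 ± 0.27 in BG and did not pass.

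Scn3a, Scn8a and Scn9a also read higher in both BG -/- arrays than in both BG +/- arrays, without passing. Scn3a, which encodes the embryonic channel Nav1.3, gave 335 and 320 in BG +/- against 475 and 512 in -/-, a change of 0.57 ± 0.22 (limma adjusted p = 0.146). Its Ctx signals were 426 and 260 in +/- against 325 and 322 in -/-, so that the spread of the +/- pair covered the -/- pair. Scn8a, which encodes Nav1.6 of the axon initial segment and node, went from 155 and 174 to 212 and 213 in BG, a change of 0.34 ± 0.12 (adjusted p = 0.123). Its Ctx signals were 259 and 247 in +/- and 223 and 207 in -/-, an order opposite to that in BG. Scn9a, which encodes Nav1.7, was at 46.0 and 29.2 in BG +/- and 47.9 and 68.6 in BG -/-, a change of 0.47 ± 0.22 (adjusted p = 0.215). Scn10a and Scn11a, known from nociceptive sensory neurons, read 24.0 to 34.8 and 19.6 to 34.0 in the BG arrays, with the -/- pair the lower for each, and neither passed. Scn7a, at 0.784 to 17.6 over the 8 arrays, was too dim to be tested.

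Of the sodium channel beta subunits, none passed in BG, and Scn3b and Scn4b stood on opposite sides. Scn3b, a beta subunit prominent in developing brain, read 916 and 870 in BG +/- against 1176 and 1134 in BG -/-, beside 722 and 775 in Ctx +/- and 734 and 729 in Ctx -/-. Its BG pairs did not overlap, with a change of 0.37 ± 0.11 (limma adjusted p = 0.0923). Scn4b, a beta subunit typical of striatal projection neurons in the adult, read 34.5 and 38.9 in BG +/-, against 17.4 and 14.0 in BG -/-. All 6 arrays outside BG +/- lay between 6.78 and 17.4. Its change of -0.73 ± 0.19 did not pass (adjusted p = 0.0558), and its probe set cleared the dim filter only through BG +/-, although the change passed with arrays centred on their medians (-0.83, adjusted p = 0.0403) and with quantile normalization (-0.78, adjusted p = 0.0395). With centring, the channel genes past the threshold in BG were 2 higher (Cacna2d1 and Scn2a) and 1 lower (Scn4b), against 3 and 0 without it. Scn2b lay at 88.8 to 109 in the BG arrays, with no call.

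**Figure D2:**
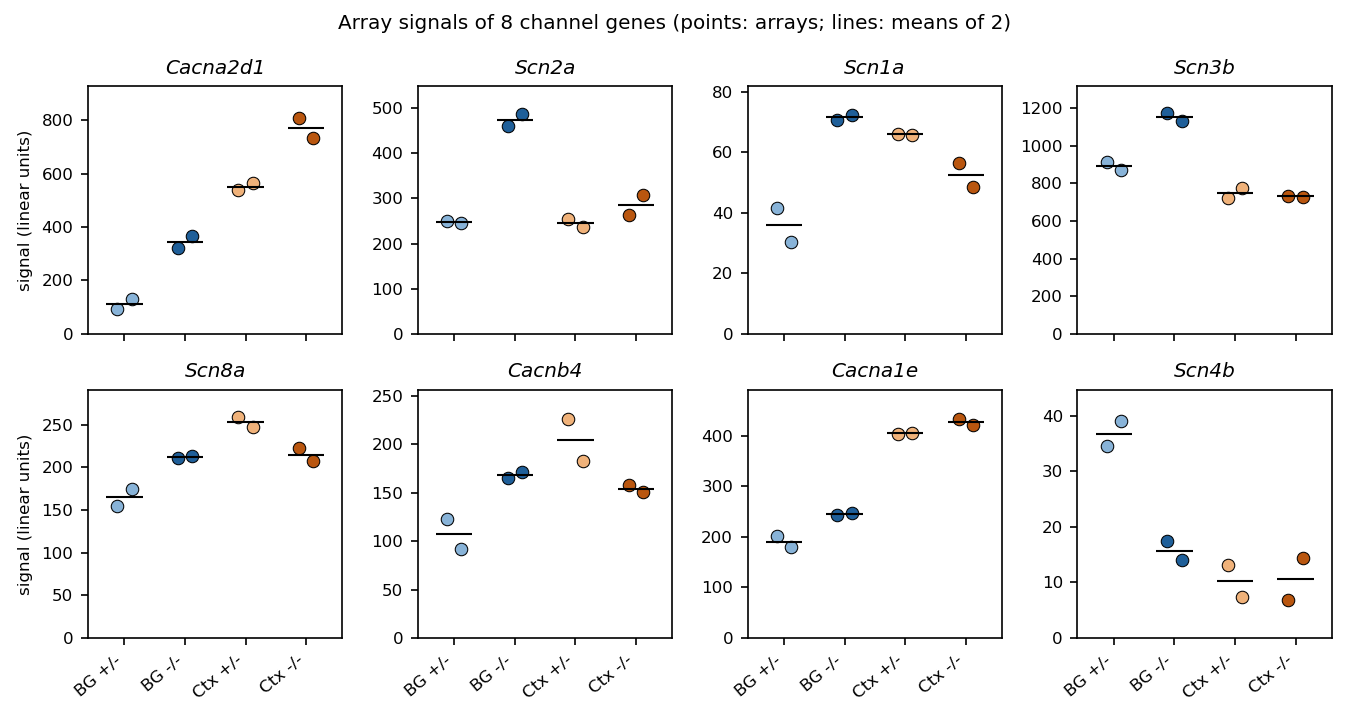
Signal on a linear scale starting at 0 (vertical axis) in each of the 8 arrays for 8 channel genes, by group on the horizontal axis, with a line at the mean of the 2 arrays of a group. Cacna2d1 rose from 93.1 and 132 in BG +/- to 322 and 365 in BG -/-, still below its 538 to 807 in cortex, whereas the BG -/- arrays of Scn2a, at 459 and 486, stood above the other 6.

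No calcium channel alpha1 subunit passed in BG by the probe set that stands for it, and the changes of the 8 tested ran from -0.41 to 0.58. Cacna1d, an L-type channel active near resting potential, was at 79.6 and 54.5 in BG +/- against 127 and 89.7 in -/- (0.58 ± 0.23, limma adjusted p = 0.157). Cacna1g, a T-type channel that opens at low voltage, was at 58.7 and 44.0 against 71.6 and 91.7 (0.54 ± 0.20, adjusted p = 0.134). Cacna1e, the R-type channel, was at 202 and 179 against 243 and 247 (0.34 ± 0.12, adjusted p = 0.116). For these 3 genes both -/- arrays lay above both +/- arrays. The T-type channel Cacna1h went the other way, from 220 and 201 to 142 and 166, a change of -0.41 ± 0.13 (adjusted p = 0.0884). Cacna1h was also lower in both Ctx -/- arrays, with 189 and 192 against 252 and 259, a change of -0.40 ± 0.13 (adjusted p = 0.380).

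The P/Q-type channel Cacna1a gave no call on the probe set that stands for it, at 32.7 and 38.0 against 35.8 and 27.7 in BG, but a dimmer probe set of it fell by 1.08 ± 0.24 (limma adjusted p = 0.0386), from 18.0 and 40.2 to 3.87 and 5.50. The N-type channel Cacna1b (183 to 258 in the 4 BG arrays), the L-type channel Cacna1c (46.5 to 70.3) and Cacna1f, the L-type channel of retina (7.70 to 41.4), gave no call. Cacna1s, the channel of skeletal muscle, was at 2.35 to 17.8 over the 8 arrays and was not tested. In the muscle marker list, 6 of 10 genes were bright enough to be tested and none passed in either genotype comparison, with summed signals of 506 to 516 in BG +/- and 317 to 374 in BG -/-.

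Cacna2d1 changed most among the channel genes. It encodes the alpha2delta-1 subunit, which binds gabapentin and is also known as a receptor for thrombospondins in synapse formation. Its signal was 93.1 and 132 in BG +/- against 322 and 365 in BG -/-, beside 538 and 564 in Ctx +/- and 807 and 733 in Ctx -/-. The 4 groups did not overlap, and both BG groups stayed below both Ctx groups. In BG the rise passed (limma adjusted p = 0.00761), while in Ctx the change was 0.47 ± 0.17 (adjusted p = 0.453). Of its other 4 tested probe sets, the brightest rose by 1.12 ± 0.21 (adjusted p = 0.0238) and the others stood at 0.34 to 1.17 without passing. The call in BG was kept in 16 of 18 alternatives, with changes of 1.05 to 1.72, and was lost without either BG -/- array (1.58 and 1.41, adjusted p = 0.0549 and 0.0657).

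No other alpha2delta subunit passed in BG. Cacna2d2, known from cerebellum and from interneurons, lay at 247 and 267 in BG +/- against 304 and 289 in BG -/- without passing. Cacna2d3 was at 174 and 212 against 218 and 219. Cacna2d4, at 0.519 to 39.0 over the 8 arrays, was not tested. Of the cytoplasmic beta subunits, Cacnb4 had the largest change, from 123 and 91.6 to 165 and 172 in BG (0.59 ± 0.17, limma adjusted p = 0.0733). Its Ctx signals were 226 and 183 in +/- against 158 and 151 in -/-, a change of -0.37 ± 0.17 (adjusted p = 0.554). Cacnb1 (94.0 to 189 in BG) and Cacnb2 (25.5 to 63.8) gave no call.

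**Figure D3:**
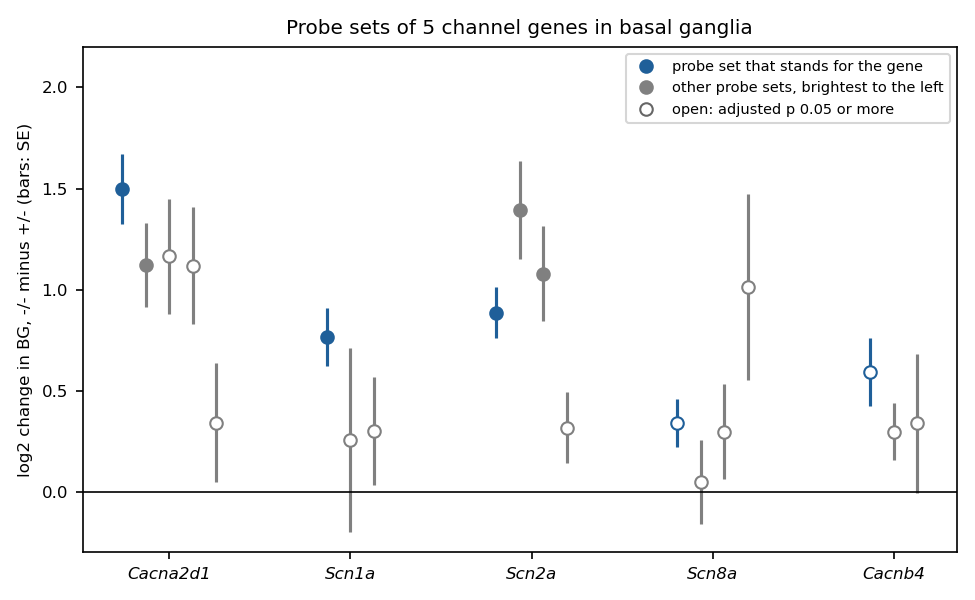
Log2 change in basal ganglia, -/- minus +/- (vertical axis), with bars of 1 SE, for every tested probe set of 5 channel genes, the brightest of each gene at the left and in blue. Filled points are past adjusted p = 0.05: 2 for Cacna2d1, 3 for Scn2a and 1 for Scn1a.

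The gamma genes gave no call in BG by the probe sets that stand for them, with changes between -0.42 and 0.49. Cacng4, an AMPA receptor auxiliary subunit, read 522 and 356 in BG +/- and 347 and 340 in BG -/-, a change of -0.31 ± 0.20 (limma adjusted p = 0.345). The replicate 2 array of BG +/- stood apart from the other 3, which lay between 340 and 356. Cacng2, which encodes stargazin, was at 140 and 133 against 164 and 116, while a dimmer probe set of it fell by 0.61 ± 0.15 (adjusted p = 0.0492), from 73.4 and 86.2 to 41.0 and 53.2. Cacng5 was at 54.3 and 34.3 against 54.8 and 82.3 (0.49 ± 0.22, adjusted p = 0.210). Cacng3, Cacng6, Cacng7 and Cacng8 gave no call, and Cacng1, of skeletal muscle, was too dim to be tested (1.05 to 37.8).

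Markers of cell types moved in the same basal ganglia arrays, where 7.82% of all genes passed (4.76% higher and 3.05% lower). Of 13 genes of maturing neurons 3 rose, Dcx by 0.93 ± 0.13, Snap25 by 0.81 ± 0.12 and Elavl4 by 0.68 ± 0.13, and none fell, with a median of 0.04. Tubb3, Elavl3, Ncam1 and Stmn2 of the same list had changes of -0.45 to -0.19 that did not pass. The summed signal of that list was 25526 to 25809 in BG +/-, 26986 to 27982 in BG -/-, 22264 to 22583 in Ctx +/- and 24794 to 25183 in Ctx -/-. Without Dcx it was 23100 to 23210 in BG +/- and 22368 to 22989 in BG -/-, so the sum was not higher in BG -/- once that gene was left out. In Ctx the sum without Dcx was 19122 to 19279 in +/- and 19383 to 19717 in -/-. Dcx lies on chromosome X, and sex and genotype cannot be told apart here. Of 13 genes of striatal projection neurons 8 fell and none rose, with a median of -0.97. Among 10 genes of cortical glutamatergic neurons 1 rose and 2 fell, with a median of 0.02. The summed signal of that list was 2218 to 2234 in BG +/- and 2637 to 2647 in BG -/-. Of 7 genes of diencephalon and hypothalamus 2 rose (Otp and Lhx9), and the summed signal of the list was 520 to 593 in BG +/- and 931 to 1010 in BG -/-. Lhx9 read 219 and 215 in BG -/- and 184 to 232 in the 4 Ctx arrays, so it was not low in cortex. Otp read 22.7 to 37.9 in those Ctx arrays. Of 8 genes of GABA neurons and interneurons 2 rose (Npy and Sst) and 2 fell (Slc32a1 and Maf). Of 9 progenitor and cell cycle genes Top2a rose, by 0.64 ± 0.12, and none fell. Of 4 red blood cell genes Hbb-y fell, by 0.98 ± 0.13, and the summed signal of that list was 5951 to 6256 in BG +/- and 3118 to 3265 in BG -/-. The part of these shifts in the channel changes was not tested. Choroid plexus genes were low in BG, with summed signals of 90.5 to 156 in its 4 arrays.

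Scn1a, Scn2a, Scn3a, Scn7a and Scn9a lie in 1 cluster on chromosome 2, the chromosome that also carries Dlx1 and Dlx2, and 8 of the 35 channel genes are on it. By the order of genes in the RefSeq table, 36 protein-coding genes lie between the cluster and Dlx1. Of the 26 of them that were tested, Ubr3 rose by 0.65 ± 0.14 and Sp5 fell by 0.87 ± 0.16 in BG, which is 7.69%. Of all tested genes of chromosome 2, 9.05% passed in BG, beside 7.67% of those on the other chromosomes. Within the cluster, the other 3 genes, Csrnp3, Galnt3 and Ttc21b, had BG changes of 0.40 ± 0.12, 0.46 ± 0.34 and 0.26 ± 0.16 that did not pass. A part of linked sequence from the mutant chromosome in these values was not tested.

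The second comparison was of -/- with +/- cortex, where no channel gene passed (limma with Benjamini-Hochberg, 0 of 31), beside 0.205% of all genes (0.022% higher and 0.183% lower). At an unadjusted p under 0.05 there were 3, Cacng5, Cacna1h and Cacna2d1 (9.68%, against 8.6% of all genes). The median change was -0.04, against -0.03 for all genes, and the changes ran from -0.82 to 0.55. The arrays did not overlap for 5 channel genes that read higher in -/- (16.1%, against 15.9% of all genes) and 8 that read lower (25.8%, against 23.4%). Cacng5 had the largest change, from 65.7 and 52.7 to 26.3 and 26.8, at -0.82 ± 0.22 (adjusted p = 0.315). In the same arrays 7 of 8 genes of GABA neurons and interneurons fell, with a median of -1.96, and their summed signal went from 1593 and 1719 to 291 and 315. Of 4 choroid plexus genes tested 2 fell, and the summed signal of that list went from 11993 and 13899 to 19.3 and 73.6. The part of these in the channel values was not tested.

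The third comparison set the genotype effect of one region against that of the other. No channel gene passed (limma with Benjamini-Hochberg, 0 of 31), beside 0.338% of all genes (0.272% higher and 0.066% lower), and 9 had an unadjusted p under 0.05 (29%, against 15.3% of all genes). The BG effect less the Ctx effect came to 1.02 ± 0.20 for Scn1a (adjusted p = 0.0821), 1.03 ± 0.24 for Cacna2d1 (0.113), 1.31 ± 0.32 for Cacng5 (0.116), 0.96 ± 0.24 for Cacnb4 (0.120), 0.68 ± 0.18 for Scn2a (0.134) and 0.56 ± 0.17 for Scn8a (0.174), and -0.74 ± 0.26 for Scn4b (0.225). The rises of Cacna2d1, Scn2a and Scn1a in BG are therefore not shown to differ from their changes in Ctx. Over 17 alternatives, with the lowest 50% of probe sets left out 2 genes passed (Scn1a and Cacna2d1), and with a prior variance that follows the mean signal 3 did (Cacna2d1, Scn2a and Cacnb4).

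The fourth and the fifth comparison set the basal ganglia against the cortex within each genotype. In +/-, 12 of 31 channel genes differed, 6 higher and 6 lower in BG (38.7%, beside 24.8% of all genes, of which 14% were higher and 10.7% lower). In -/-, 10 of 31 differed, 7 higher and 3 lower (32.3%, beside 18.7% of all genes, of which 11.4% were higher and 7.25% lower). The Ctx mean of Scn4b, Scn9a, Scn10a, Cacng3 and Cacng6 lay below the filter on dim probe sets, so these 5 were tested only because BG was higher. They make up 4 of the 6 calls higher in BG +/- and 2 of the 7 in BG -/-, and these counts are no support for a direction. In both genotypes 6 genes passed in the same direction, 50% of those past the threshold in +/- and 60% of those in -/-. The matching share over all genes was not computed, so whether these percentages are particular to the channel genes is not known. Higher in BG in both were Cacng2, Cacng3, Cacna2d2 and Scn9a, and lower in both were Cacna2d1 and Cacna1e. With no filter Scn9a kept both calls (limma adjusted p = 0.0198 and 0.0216) and Cacng3 kept neither (0.0656 and 0.0670). The 2 comparisons use different arrays, and each shares arrays with the genotype comparisons.

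Cacna2d1 was lower in BG, with a difference of -2.16 ± 0.17 in +/- (limma adjusted p = 0.000781) and of -1.13 ± 0.17 in -/- (adjusted p = 0.00799). With the mean of its probe sets the -/- value was -0.47 and did not pass, and its other 4 tested probe sets gave no call in -/-. Cacna1e read 202 and 179 in BG +/- against 403 and 406 in Ctx +/-, and 243 and 247 in BG -/- against 433 and 422 in Ctx -/-. The difference was -1.03 ± 0.12 in +/- (adjusted p = 0.00220) and -0.77 ± 0.12 in -/- (adjusted p = 0.00764), with no overlap between the regions. In the same arrays all 10 tested genes of cortical glutamatergic neurons were lower in BG +/- and 8 of them in BG -/-, with summed signals of 2218 to 2647 in BG and 11156 to 11951 in Ctx, and the part of this in the channel values was not tested.

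Cacng2 was higher in BG, with 140 and 133 in +/- and 164 and 116 in -/-, against 59.8 and 65.9 and then 57.6 and 45.3 in Ctx. The difference was 0.95 ± 0.18 in +/- (limma adjusted p = 0.0126) and 1.20 ± 0.18 in -/- (adjusted p = 0.00765), and its other tested probe set passed in the same direction in both genotypes. Cacna2d2 was at 247 to 304 in the 4 BG arrays and 144 to 176 in the 4 Ctx arrays, with differences of 0.71 ± 0.13 and 0.83 ± 0.13 (adjusted p = 0.0125 and 0.00959). Scn9a lay at 29.2 to 68.6 in BG and 4.47 to 15.0 in Ctx, with differences of 1.19 ± 0.22 and 1.26 ± 0.22 (adjusted p = 0.0111 and 0.0125). Cacng3 was at 32.4 to 39.7 in BG and 5.81 to 19.3 in Ctx, with differences of 0.82 ± 0.23 and 0.86 ± 0.23. Its adjusted p of 0.0414 and 0.0435 was the weakest of these, and the call was kept in 5 of 17 alternatives in +/- and 3 of 17 in -/-.

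In +/- alone, Cacna1d, Cacnb4, Scn1a and Scn8a passed as lower in BG and Scn4b and Scn10a as higher. Cacna1d was at 79.6 and 54.5 in BG against 138 and 179 in Ctx (-1.08 ± 0.23, limma adjusted p = 0.0181). The difference was -0.85 ± 0.17 for Cacnb4, -0.67 ± 0.14 for Scn1a and -0.58 ± 0.12 for Scn8a (adjusted p = 0.0141, 0.0191 and 0.0168). Other probe sets of Scn1a stood at 1.12 ± 0.45 and 0.06 ± 0.27 and gave no call, and with the mean of its probe sets the value turned to 0.17 (adjusted p = 0.633). For Scn8a and Cacnb4 the other probe sets lay between -0.86 and 0.03 and did not pass. Scn4b was higher in BG by 1.01 ± 0.19 (adjusted p = 0.0111) and Scn10a by 1.21 ± 0.33 (adjusted p = 0.0409), the latter at 32.8 and 34.8 in BG and 2.40 and 9.34 in Ctx, where the signal is low. Both stood just above the filter on dim probe sets, with mean log2 signals of 5.03 against a filter at 5.01, and below it without the BG +/- arrays. With no filter the adjusted p was 0.0205 for Scn4b and 0.0625 for Scn10a, and the Scn10a call was kept in 7 of 17 alternatives. Of 6 tested genes of sensory neurons and adrenal medulla 1 was higher in BG +/- and none lower.

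In -/- alone, Scn2a, Scn3b and Cacng5 passed as higher in BG and Cacna1a as lower. For Scn2a the difference was 0.70 ± 0.13 in -/- (limma adjusted p = 0.0142), beside 0.02 ± 0.13 in +/-, and for Scn3b 0.65 ± 0.11 (adjusted p = 0.0127) beside 0.25 ± 0.11. With arrays centred on their medians, which moved the median difference of all probe sets in -/- from 0.08 to -0.21, the Scn2a and Scn3b values were 0.42 and 0.36 and did not pass. Under that centring the calls in -/- were 3 higher and 5 lower, against 7 and 3, and in +/- 4 higher and 6 lower. Cacng5 was at 54.8 and 82.3 in BG -/- against 26.3 and 26.8 in Ctx -/- (0.97 ± 0.22, adjusted p = 0.0297). Cacna1a was at 35.8 and 27.7 in BG -/- against 78.3 and 81.5 in Ctx -/- (-1.01 ± 0.21, adjusted p = 0.0203). That a gene passed in 1 genotype and not in the other does not show a difference between genotypes, and the test of that difference is the third comparison, which no channel gene passed.

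**Figure D4:**
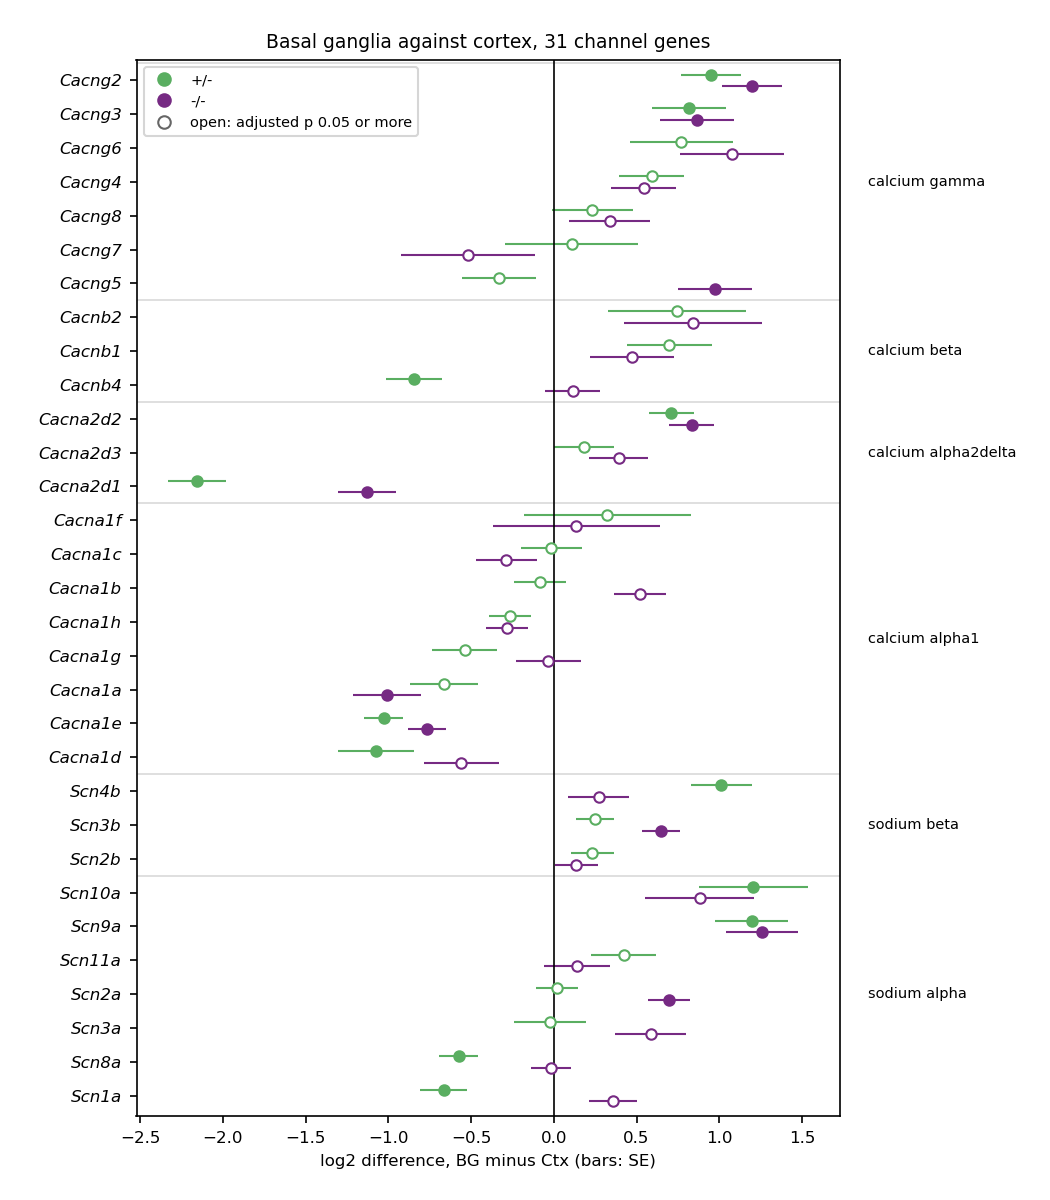
Log2 difference between regions, BG minus Ctx (horizontal axis), for the 31 channel genes tested, by subunit class, in +/- (green) and -/- (purple), with bars of 1 SE and filled points past adjusted p = 0.05. Cacna2d1 lies farthest to the left, at -2.16 in +/- and -1.13 in -/-, and 6 of the 7 gamma genes lie to the right of 0 in each genotype. Of those, Cacng3 and Cacng6 were tested only because BG was higher.

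By class, 6 of 7 gamma genes and 3 of 3 sodium beta genes had a positive difference in both genotypes, with medians of 0.59 and 0.25 in +/- and 0.86 and 0.27 in -/-. For calcium alpha1 genes 1 of 8 was positive in +/- and 2 of 8 in -/-, with medians of -0.40 and -0.29. Over all genes 59.7% of the differences were positive in +/- and 55.6% in -/-, with medians of 0.11 and 0.06. The gamma genes include Cacng3 and Cacng6, and the sodium beta genes Scn4b, which were tested only because BG was higher. The counts and medians of the gamma and sodium beta classes are therefore no support for a direction. Among the sodium beta genes, Scn2b did not pass on the probe set that stands for it, at 0.23 ± 0.13 and 0.14 ± 0.13, but a second probe set was higher in BG by 1.16 ± 0.19 in +/- and 1.53 ± 0.19 in -/- (limma adjusted p = 0.00746 and 0.00364). The arrays of the regions did not overlap, with BG higher, for 12 of 31 channel genes in +/- (38.7%, against 39.2% of all genes) and 18 in -/- (58.1%, against 40.1%). The counts with BG higher include Scn9a, Scn10a, Cacng3 and Cacng6 in both genotypes, and Scn4b in +/-. These genes were tested only because BG was higher, so those counts are no support for a direction either. The arrays did not overlap, with BG lower, for 9 in +/- (29%, against 25.8%) and 7 in -/- (22.6%, against 30.9%). Leaving out BG +/- replicate 2, BG +/- replicate 3 or Ctx +/- replicate 3 lowered the count in +/- from 12 to 7, 5 and 7. In -/- the count of 10 became 3 and 4 without BG -/- replicates 2 and 3, and 1 and 6 without Ctx -/- replicates 2 and 3.

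The genes that work beside the channels were counted from a list of the axon initial segment and channel partners. Of 27 listed, 22 were tested, 4 rose in BG -/- and none fell, with a median change of 0.05. Ank3, the ankyrin G that anchors sodium channels at the initial segment, went from 912 and 1145 to 1884 and 2022 (0.92 ± 0.15, limma adjusted p = 0.0156). Ank2, which encodes ankyrin B of the axon shaft, went from 535 and 583 to 860 and 1100 (0.78 ± 0.15, adjusted p = 0.0277). Nrcam, a cell adhesion molecule of the same membrane, rose by 0.62 ± 0.12, and Fgf14, a homologous factor that binds sodium channels, by 0.64 ± 0.14 (adjusted p = 0.0274 and 0.0347). With no filter on dim probe sets Ank3 kept its call (limma adjusted p = 0.0321). Ank2, Nrcam and Fgf14 lost theirs without the filter (adjusted p = 0.0522, 0.0550 and 0.0656). None of the 22 passed in Ctx or for the difference between regions. The shares called in BG are to be read beside the 7.82% of all genes. The lack of calls elsewhere stands beside 0.205% of all genes in Ctx and 0.338% for the difference.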

How the data were processed

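RNA of 8 samples was measured on oligonucleotide arrays. The authors deposited intensity values, 1 linear signal per probe set, already scaled to a common trimmed mean; the software is not given in the sources used here. From these, 64 control probe sets were left out, and log2(signal + 16) was analysed without further normalization, an offset that understates changes of low genes. The dimmest 30% of 45037 probe sets by mean log2 were dropped, leaving 31526. A model of 4 group means was fitted to all 8 arrays in limma 3.58.1 (R 4.3.3; lmFit, eBayes, two-sided, 4 residual and 2.76 prior degrees of freedom), with Benjamini-Hochberg adjustment over all probe sets and a threshold of 0.05. A gene is the brightest probe set naming it alone (platform annotation: 34945 probe sets with 1 symbol, 932 with several, 9160 with none), which gave 13627 tested genes. All 35 channel symbols were found in a RefSeq table of GRCm38.p6, used for chromosomes and gene order. The fit was also run on simulated arrays with independent noise. Its outcome is not given here, and such noise cannot bear on shared animals, sex or batch.

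Members and lists were chosen with earlier results of these data known. Values are given for every channel gene past the threshold in a genotype comparison, for up to 6 per direction in each region comparison, and for the brightest member of each class; the other channel genes were added after their values were seen. Alternatives were offsets of 1 and 64, no filter or 50%, median centring, quantile normalization, the replicate block, a trended prior, only the groups compared, the mean of a gene's probe sets, and each array left out in turn, where the lone array is assumed to vary like the other groups.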

Additional observations from a re-analysis of the deposited data

How the results depend on the processing

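The count of channel genes past the threshold in BG, 3, was 5 with an offset of 64, 6 with the lowest 50% of probe sets left out and 8 with a prior variance that follows the mean signal, and 0 to 4 with 1 array left out in turn. For the difference between regions, the count of 0 was 2 with the lowest 50% left out and 3 with that prior variance, and stayed 0 without any 1 array. In Ctx it was 0 in all 18 alternatives. For BG against Ctx in +/- the count of 12 was 7 with only the groups compared, 15 with an offset of 64 and 5 to 12 with 1 array left out. In -/- the count of 10 was 13 with an offset of 64 and 1 to 10 with 1 array left out. Reversed values were those of Scn1a with the mean of its probe sets, 0.030 in Ctx and 0.17 for BG against Ctx in +/-. The replicate block gave 3, 0, 0, 11 and 9 channel genes in the 5 comparisons. Deviations of same-numbered arrays correlated at -0.03 to 0.02 between groups. With 1 difference per group, this cannot decide whether same-numbered arrays share an animal or a batch. Over the single genes, 432 values outside the leave-one-out fits kept direction and side of the threshold, 33 lost the call and 17 gained one. The 432 include values with no call in the main fit, such as all those for Ctx, so they do not measure how firm the calls are. The planned fit of only the groups compared does not exist apart for the difference between regions, which uses all 4 groups.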

Other observations

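Genes that handle calcium after entry were examined from 2 further lists. Of 20 tested genes of calcium stores, pumps and exchangers, 2 rose in BG -/- and none fell, with a median change of 0.18 beside -0.08 for all genes. Itpr3, an IP3 receptor of the endoplasmic reticulum, rose by 1.11 ± 0.18 from low signals of 11.3 and 7.65 to 40.2 and 37.8 (limma with Benjamini-Hochberg, adjusted p = 0.0156). The difference between regions was 1.73 ± 0.25 (adjusted p = 0.0496, and 0.0992 with no filter on dim probe sets), with 20.6 and 19.8 in Ctx +/- and 11.7 and 4.11 in Ctx -/-. Its probe set cleared that filter only through BG -/-, and with no filter the adjusted p in BG was 0.0307. Ryr3, a ryanodine receptor, rose by 0.67 ± 0.14, from 49.4 and 63.4 to 98.3 and 99.7, and read 211 to 256 in the 4 Ctx arrays. Of 17 calcium-dependent kinases, phosphatase subunits and their targets, Camk4 rose by 0.69 ± 0.15 and Camk2a fell by 0.93 ± 0.22 (adjusted p = 0.0361 and 0.0435). With no filter Ryr3, Camk4 and Camk2a did not pass in BG (limma adjusted p = 0.0577, 0.0663 and 0.0741). No gene of either list passed in Ctx, where 0.205% of all genes did. The counts called in BG are to be read beside the 7.82% of all genes.

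Among 6 tested cation channels related to the voltage-gated ones, Nalcn, the sodium leak channel that sets resting excitability, rose in BG -/- from 205 and 243 to 360 and 412 (0.75 ± 0.14, limma adjusted p = 0.0246). Hcn3, a hyperpolarisation-activated channel, fell from 148 and 118 to 66.9 and 72.0 (-0.80 ± 0.19, adjusted p = 0.0489). With no filter on dim probe sets Nalcn kept its call (limma adjusted p = 0.0485) and Hcn3 did not (0.0823). Nalcn read 52.8 to 66.3 in the 4 Ctx arrays, so both BG groups lay above all of them. These calls, too, are to be read beside the 7.82% of all genes called in BG.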
